A study of Mus musculus with 10 samples.

Results

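The genes described here were the 4 mouse FOXO transcription factors, Foxo1, Foxo3, Foxo4 and Foxo6, and 6 genes whose transcripts are known to fall under insulin signalling: Pik3ip1, Irs2, Klf15, Sesn1, Sesn3 and Txnip. They were taken by gene name, 10 of the 54532 genes in the table, and all 10 passed the filter on low values with 15388 genes in all. Lungs came from wild-type C57/BL6 mouse pups. In the increased pulmonary blood flow (IncPBF) group, a fistula was made by puncture from the abdominal aorta into the inferior vena cava on postnatal day 7 (P7). The sham group had the same opening of the abdomen on P7 without the puncture. Whole lungs were taken on P14, with 5 lungs in each group, and measured by bulk RNA sequencing as FPKM. FPKM is the fragments of a gene scaled by its length and by a size taken for its library. The sources say that pups of either sex were used, and the labels give neither sex nor litter.

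FOXO proteins are forkhead transcription factors that sit at the end of the insulin and IGF1 pathway. When the receptor is active, PI3K and AKT signal to FOXO proteins, AKT phosphorylates them, and 14-3-3 proteins hold them in the cytoplasm. When the signal is low, they enter the nucleus and switch on genes for growth arrest, stress resistance, fuel use and feedback on the pathway itself. In the lung they are known for holding back the growth of endothelial and vascular smooth muscle cells.

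The start-site regions of the target genes are shown because FOXO proteins, and insulin through them, act on short elements in such regions. A RefSeq window (GRCm38.p6) of 250 bases before to 50 bases after the start was available for 8 of the 10 genes, and Foxo4 and Foxo6 had none. Of 3 motifs searched on both strands, the FOXO element core GTAAACA was in the windows of Txnip and Sesn1, the insulin response element core CAAAACA in that of Irs2, and the E-box CACGTG in those of Klf15 and Irs2. The matches did not overlap each other. Across the 32817 windows of all genes, 3.65% held GTAAACA, 6.29% held CAAAACA and 7.15% held CACGTG. The 250 bases before the start are given below from 5′ to 3′ on the strand of the gene, with matches in capitals, for the gene with a FOXO core there, the gene with an insulin response core and the gene with the largest difference between the groups. Txnip lies on the plus strand at chr3:96557707-96557956, Irs2 on the minus strand at chr8:11008930-11009179 and Klf15 on the plus strand at chr6:90462326-90462575.
Txnip: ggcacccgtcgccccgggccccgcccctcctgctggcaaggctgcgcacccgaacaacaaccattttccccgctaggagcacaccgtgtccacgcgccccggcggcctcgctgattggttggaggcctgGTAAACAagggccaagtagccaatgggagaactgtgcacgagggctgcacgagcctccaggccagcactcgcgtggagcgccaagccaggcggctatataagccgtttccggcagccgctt
Irs2: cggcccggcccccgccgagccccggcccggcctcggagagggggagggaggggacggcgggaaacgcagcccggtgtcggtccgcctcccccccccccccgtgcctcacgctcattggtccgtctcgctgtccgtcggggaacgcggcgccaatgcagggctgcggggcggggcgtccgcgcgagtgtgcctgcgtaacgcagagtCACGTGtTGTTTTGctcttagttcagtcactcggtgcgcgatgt
Klf15: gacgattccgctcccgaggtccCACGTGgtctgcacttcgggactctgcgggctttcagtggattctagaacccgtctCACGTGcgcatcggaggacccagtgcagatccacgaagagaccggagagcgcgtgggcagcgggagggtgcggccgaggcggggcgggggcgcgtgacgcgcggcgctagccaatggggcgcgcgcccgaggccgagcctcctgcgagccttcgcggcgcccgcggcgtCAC
In Txnip, the FOXO core ran from position -121 to -115 relative to the start. In Irs2, the insulin response core read TGTTTTG from -37 to -31, next to an E-box from -44 to -39. That Irs2 start lies 471 bases from the one in the gene model of the table. Klf15 had 3 E-boxes, from -228 to -223, from -172 to -167, and across the start itself, so that only the first letters of the last one are shown. The FOXO core of Sesn1 lay after the start, from 23 to 29, at a RefSeq start 639 bases from that of the gene model, and the second Sesn1 window, 77504 bases from it, did not hold the core. A match describes letters in a window and not a bound site.

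Libraries differed in a way the groups do not explain. Xist, the RNA made from the inactive X chromosome, was at 52.4 to 66.5 FPKM in IncPBF lungs 2 to 5, at 0.0144 FPKM in IncPBF lung 1, and at no more than 0.0770 FPKM in any sham lung. The Y-linked Ddx3y was at 21.8 to 24.6 FPKM in sham lungs, at 18.6 FPKM in IncPBF lung 1, and at no more than 0.00926 FPKM in the other IncPBF lungs. Thus 4 of 5 IncPBF lungs and 0 of 5 sham lungs had Xist above 1 FPKM, and for these lungs surgery and Xist status cannot be told apart. The values of IncPBF lung 1, the IncPBF lung that matched the sham lungs in Xist, and fits with Xist as a covariate are therefore given as well. IncPBF lung 5 had the highest skeletal muscle RNA, with Acta1 at 4.23 FPKM against at most 1.49 FPKM in the other lungs, and IncPBF lungs 2 and 4 had Myl7, a heart muscle gene, at 10.6 and 11.8 FPKM against at most 2.07 FPKM elsewhere. Sham lung 5 stood apart in the airway gene Scgb1a1, at 128 FPKM against 5116 FPKM or more in the other sham lungs, and the FOXO and target gene calls held without any one of these lungs. Depth was 16103423 to 20318525 fragments on genes in IncPBF lungs, a wider range than the 18171494 to 19400575 in sham lungs.

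The first question was whether transcripts of the FOXO factors and their insulin-repressed targets differed between the IncPBF group and the sham group. They were mostly lower. By limma, 7 of the 10 genes were significantly downregulated in the IncPBF group at an adjusted p under 0.05, where 16.2% of all genes tested were called lower. These were Foxo1, Foxo3, Foxo4, Irs2, Klf15, Sesn1 and Txnip. In each of the 7, every IncPBF lung was below every sham lung, a separation seen in 11.2% of all genes tested. None of the 10 was called higher by limma or by limma-voom on recovered fragments, and 0 were higher at an unadjusted limma p under 0.05, where 16.1% of all genes were called higher at the adjusted threshold. The median log2 fold change of the 10 genes was -0.63, against 0.01 over all genes tested. In bulk lung, fewer cells of a type and less RNA per cell cannot be told apart.

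**Figure D1:**
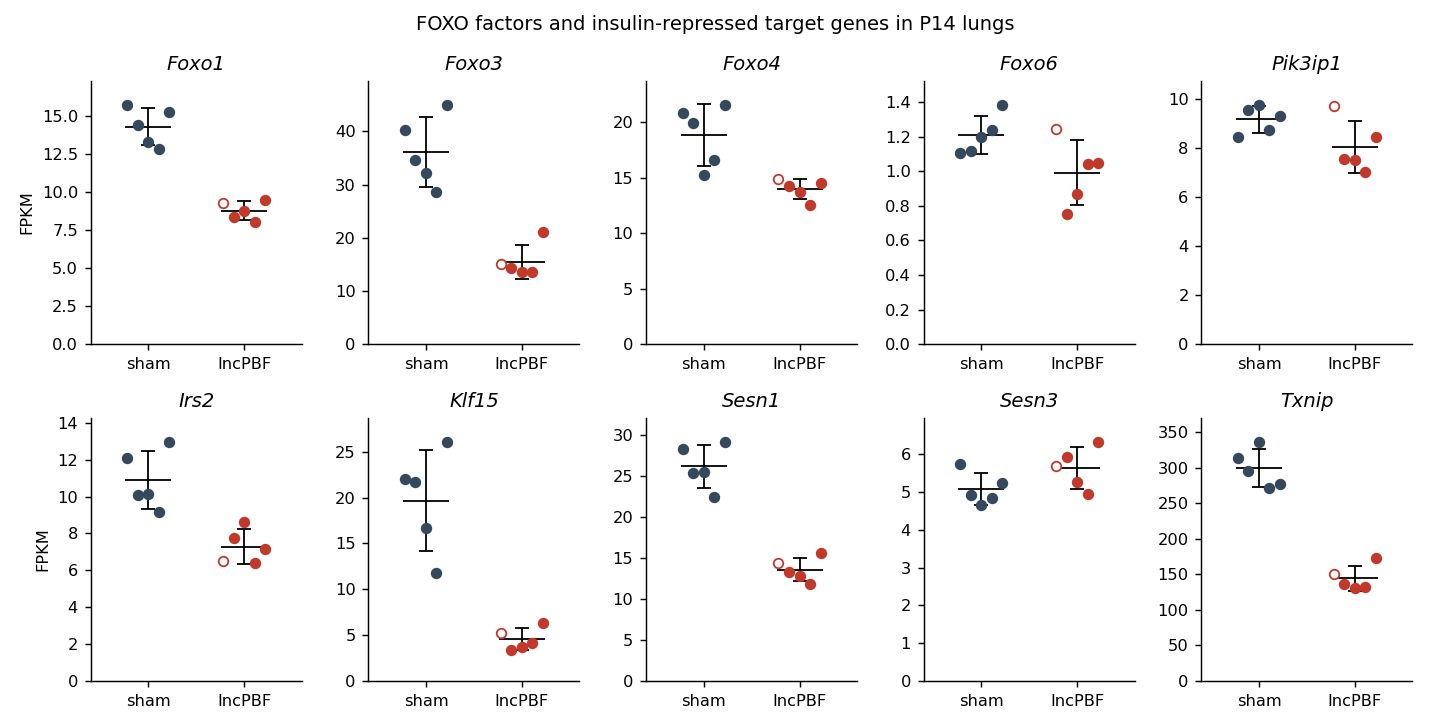
FPKM of each of the 10 genes (vertical axes, starting at 0 and scaled for each gene) in 5 sham and 5 IncPBF lungs, with 1 point per lung, the mean as a bar and the SD as whiskers; the open point is IncPBF lung 1, which had no Xist signal above 1 FPKM. For Foxo1, Foxo3, Foxo4, Irs2, Klf15, Sesn1 and Txnip the IncPBF points all lie below the sham points, and for Foxo6, Pik3ip1 and Sesn3 they overlap.

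Among the factors, Foxo3 showed the largest difference. Foxo3 (chr10:42181841-42276755, minus strand), a FOXO factor known in quiescence and cell survival, was at 15.0, 14.3, 13.6, 13.5 and 21.1 FPKM in IncPBF lungs 1 to 5 and at 40.3, 34.6, 32.2, 28.5 and 44.9 FPKM in sham lungs 1 to 5. The means were 15.5 ± 3.16 and 36.1 ± 6.55 FPKM (SD, n = 5 each), with a log2 fold change of -1.22 (SE 0.14, limma adjusted p = 0.000146). IncPBF lung 5 stood above the other IncPBF lungs but still below the lowest sham lung. The difference was placed 169th among the falls of all 15388 genes.

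Foxo1 (chr3:52268336-52353221, plus strand), the FOXO factor best known for insulin-controlled fuel metabolism and vascular growth, was at 9.31, 8.37, 8.75, 8.01 and 9.48 FPKM in IncPBF lungs and at 15.7, 14.4, 13.3, 12.8 and 15.3 FPKM in sham lungs. The means were 8.78 ± 0.620 and 14.3 ± 1.24 FPKM, with a log2 fold change of -0.70 (SE 0.07, limma adjusted p = 6.19e-05). The spread within each group was narrow, and the gap between the highest IncPBF lung and the lowest sham lung was wider than either SD.

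Foxo4 (chrX:101254528-101260873, plus strand), the X-linked member of the family, was at 14.9, 14.2, 13.7, 12.5 and 14.5 FPKM in IncPBF lungs and at 20.8, 19.95, 15.3, 16.6 and 21.6 FPKM in sham lungs. The log2 fold change was -0.42 (SE 0.10, limma adjusted p = 0.00757). The groups nearly touched, since IncPBF lung 1 at 14.9 FPKM lay just under sham lung 3 at 15.3 FPKM. Of the 493 X-linked genes tested, 10.3% were called lower. With Xist as a covariate the Foxo4 difference was -0.30 (adjusted p = 0.352) and was no longer called.

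Foxo6 (chr4:120267079-120287349, minus strand), a member mostly described in brain, had the fewest fragments of the 10 genes, 37 to 63 per lung. It was at 1.25, 0.755, 0.869, 1.04 and 1.05 FPKM in IncPBF lungs and at 1.11, 1.12, 1.20, 1.24 and 1.38 FPKM in sham lungs. The groups overlapped through IncPBF lung 1, and the log2 fold change of -0.27 (SE 0.14) did not pass (limma adjusted p = 0.168; 2-sided exact permutation p = 0.0556).

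Because FPKM is scaled by gene length, levels can be compared between the factors. Foxo3 was the most abundant in every sham lung, followed by Foxo4, Foxo1 and Foxo6. The same order was found in 4 of 5 IncPBF lungs, and in IncPBF lung 3 Foxo4 was level with Foxo3, at 13.7 against 13.6 FPKM. Foxo3 was nearly level with Foxo4 in IncPBF lungs 1 and 2 as well, at 1.007 times its level in each. The summed FOXO level was 39.3 ± 4.29 FPKM in IncPBF lungs (35.1 to 46.1) and 70.5 ± 10.2 FPKM in sham lungs (59.2 to 83.1). Foxo3 made up 36.9% to 45.7% of that sum in IncPBF lungs and 48.2% to 54.1% in sham lungs, which did not overlap. The share of Foxo4 moved the other way, from 24.6% to 28.4% in sham lungs to 31.5% to 37.8% in IncPBF lungs. In IncPBF lung 1 the sum was 40.4 FPKM and the Foxo3 share 37.1%, both below every sham lung. As a ratio, Foxo3 to Foxo4 averaged 1.92 ± 0.185 in sham lungs and 1.11 ± 0.194 in IncPBF lungs, where IncPBF lungs 4 and 5 were at 1.08 and 1.45.

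**Figure D2:**
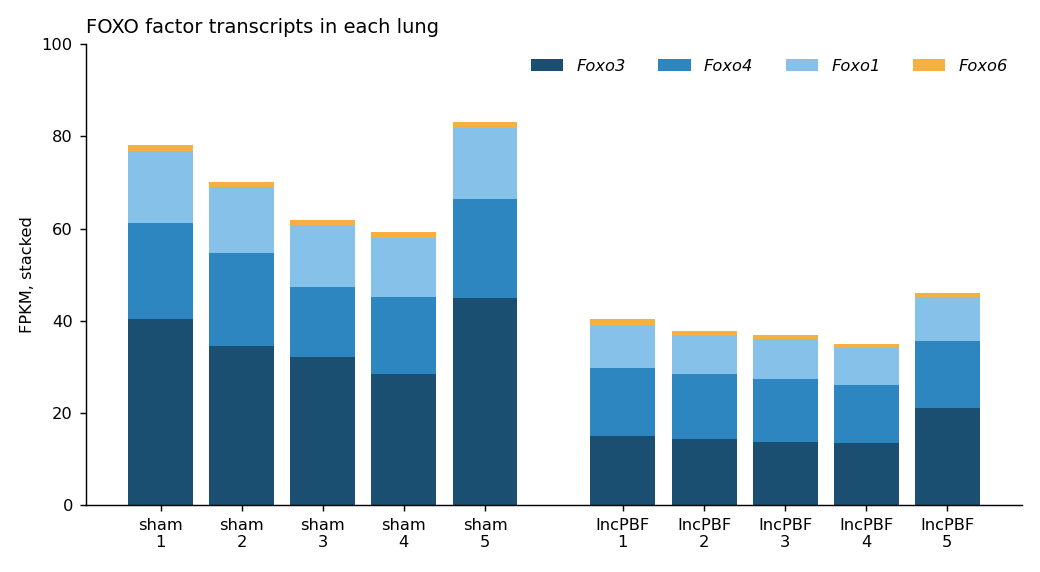
FPKM of Foxo3, Foxo4, Foxo1 and Foxo6 stacked for each lung (vertical axis, FPKM; 1 bar per lung). The sham bars reach 59.2 to 83.1 FPKM and the IncPBF bars 35.1 to 46.1 FPKM, and the Foxo3 segment is the one that shrinks most.

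Among the target genes, Klf15 differed most. Klf15 (chr6:90462576-90475238, plus strand), a Krüppel-like transcription factor that drives amino acid breakdown and glucose production in fasting and is also induced by glucocorticoids, was at 5.19, 3.42, 3.70, 4.13 and 6.37 FPKM in IncPBF lungs and at 22.1, 21.7, 16.6, 11.8 and 26.1 FPKM in sham lungs. The mean was 4.31-fold lower in IncPBF lungs, at 4.56 ± 1.21 against 19.7 ± 5.54 FPKM, with a log2 fold change of -2.07 (SE 0.22, limma adjusted p = 7.78e-05). This was the 35th largest fall of all genes tested. Klf15 also varied most within the groups, and sham lung 5 had 2.21 times the level of sham lung 4. In the order of mean levels of the 10 genes, Klf15 was 4th in sham lungs and 9th in IncPBF lungs.

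Txnip (chr3:96557957-96561883, plus strand) encodes an arrestin-like protein that binds thioredoxin and lowers glucose uptake, and its transcript rises with glucose and falls with insulin. It was by far the most abundant of the 10 genes, at 149.7, 136, 131, 132 and 173 FPKM in IncPBF lungs and at 314, 295, 336, 272 and 277 FPKM in sham lungs. The level fell 2.07-fold, with a log2 fold change of -1.05 (SE 0.09, limma adjusted p = 2.24e-05). At least 7123 fragments lay behind each value, and no IncPBF lung came near the sham range. The antisense gene Gm15441 overlaps Txnip and was given at most 16 fragments in any lung. Whether the counting used strand is not given in the sources used here, so the part of Gm15441 in the Txnip values was not tested.

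Sesn1 (chr10:41809935-41908424, plus strand) and Sesn3 (chr9:14275067-14333101, plus strand) encode sestrins, stress-induced proteins that restrain mTORC1, and both are known FOXO targets. They did not move alike. Sesn1 was at 14.3, 13.3, 12.8, 11.9 and 15.6 FPKM in IncPBF lungs and at 28.3, 25.4, 25.5, 22.5 and 29.2 FPKM in sham lungs, with a log2 fold change of -0.94 (SE 0.09, limma adjusted p = 3.44e-05). Sesn3 was at 5.69, 5.93, 5.28, 4.94 and 6.33 FPKM in IncPBF lungs and at 5.73, 4.93, 4.67, 4.83 and 5.24 FPKM in sham lungs. The Sesn3 groups overlapped, and its log2 fold change of 0.15 (SE 0.08) was the only positive one of the 10 and did not pass (limma adjusted p = 0.192; 2-sided exact permutation p = 0.0952). The third sestrin, Sesn2, had a log2 fold change of -0.18 (limma adjusted p = 0.241).

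Irs2 (chr8:10984681-11008458, minus strand) and Pik3ip1 (chr11:3330401-3342971, plus strand) act on the pathway itself. Irs2, the adaptor that links the insulin receptor to PI3K, was at 6.53, 7.73, 8.65, 6.39 and 7.15 FPKM in IncPBF lungs and at 12.1, 10.1, 10.1, 9.16 and 13.0 FPKM in sham lungs. The fall was 1.49-fold, with a log2 fold change of -0.57 (SE 0.11, limma adjusted p = 0.00271). The highest IncPBF lung, lung 3 at 8.65 FPKM, lay close under sham lung 4 at 9.16 FPKM. Pik3ip1, a membrane protein that inhibits the catalytic subunit of PI3K, was at 9.72, 7.56, 7.49, 7.01 and 8.44 FPKM in IncPBF lungs and at 8.44, 9.54, 9.75, 8.74 and 9.32 FPKM in sham lungs. Its log2 fold change of -0.19 (SE 0.09) did not pass (limma adjusted p = 0.110; 2-sided exact permutation p = 0.0952). One lung decided this, since without IncPBF lung 1, the highest IncPBF lung, the value was -0.26 (limma adjusted p = 0.0197).

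From the highest to the lowest mean, the sham order was Txnip, Foxo3, Sesn1, Klf15, Foxo4, Foxo1, Irs2, Pik3ip1, Sesn3 and Foxo6. Neighbours in this order overlapped over the sham lungs, except Txnip and Foxo3, Pik3ip1 and Sesn3, and Sesn3 and Foxo6. The IncPBF order was Txnip, Foxo3, Foxo4, Sesn1, Foxo1, Pik3ip1, Irs2, Sesn3, Klf15 and Foxo6. Here Txnip and Foxo3, Sesn1 and Foxo1, Irs2 and Sesn3, and Klf15 and Foxo6 did not overlap, and the other neighbours did. Klf15 and Sesn1 were placed lower than in sham lungs, Foxo4, Foxo1, Pik3ip1 and Sesn3 higher, and the other 4 genes kept their place.

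The same lungs were often at the ends of the range for several of these genes. Within the sham group, lung 4 was the lowest for 6 of the 7 called genes, all but Foxo4, and lung 5 was the highest for 5 of them, all but Foxo1 and Txnip. Within the IncPBF group, lung 5 was the highest for 5 of the 7 and lung 4 the lowest for 5. Over all 2490 genes called lower, sham lung 3 was most often the lowest sham lung, in 46.7%, and sham lung 4 in 30.5%, while sham lung 1 was most often the highest, in 40.1%, and sham lung 5 in 34.8%. Over the same genes IncPBF lung 4 was the lowest IncPBF lung in 43.9% and IncPBF lung 5 the highest in 42.8%. IncPBF lung 4 also had the fewest fragments of its group and IncPBF lung 5 the most, while sham lungs 4 and 5 lay at 18768734 and 18171494 fragments, and the part of depth in this order was not tested.

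**Figure D3:**
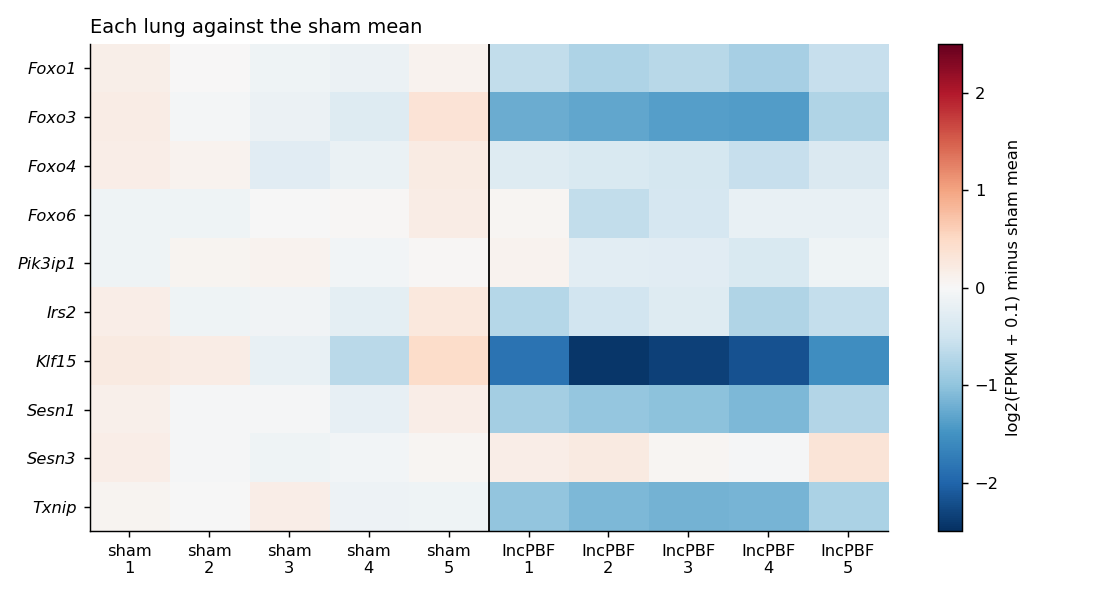
Colour map of log2(FPKM + 0.1) of each gene (rows) in each lung (columns) minus the mean of the 5 sham lungs for that gene; blue is below and red above the sham mean, and the black line parts sham from IncPBF lungs. The rows of the 7 called genes are blue in all 5 IncPBF lungs, down to -2.44 for Klf15 in IncPBF lung 2, while Sesn3 is above the sham mean in 4 of 5 IncPBF lungs.

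For Xist status, the values were as follows. IncPBF lung 1, without Xist, was below every sham lung for all 7 called genes and within the sham range for Foxo6, Pik3ip1 and Sesn3. Set alone against the 5 sham lungs, it gave log2 fold changes of -1.85 for Klf15, -1.24 for Foxo3, -0.99 for Txnip, -0.86 for Sesn1, -0.72 for Irs2, -0.61 for Foxo1 and -0.32 for Foxo4. A single lung gives no spread of its own and is assumed in that fit to vary like the sham lungs, so its values are best read as those of 1 lung. Txnip was the only one of the 10 past the threshold (limma adjusted p = 0.0458). With log2 Xist as a covariate over all lungs, 741 of all 15388 genes tested were called. Later counts with this covariate stand beside that number. The group difference in this fit rests mainly on IncPBF lung 1, since Xist sets the other IncPBF lungs apart. It is therefore not separate from the values of that lung. Of the 10 genes 5 passed, namely Txnip (-0.996, limma adjusted p = 0.0101), Sesn1 (-0.85, 0.0153), Foxo1 (-0.60, 0.0256), Klf15 (-1.80, 0.0278) and Foxo3 (-1.21, 0.0299). Irs2 had a larger difference of -0.70 but missed the threshold (adjusted p = 0.0642). Foxo6 and Pik3ip1 were near 0 in this fit, at 0.04 and 0.08.

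**Figure D4:**
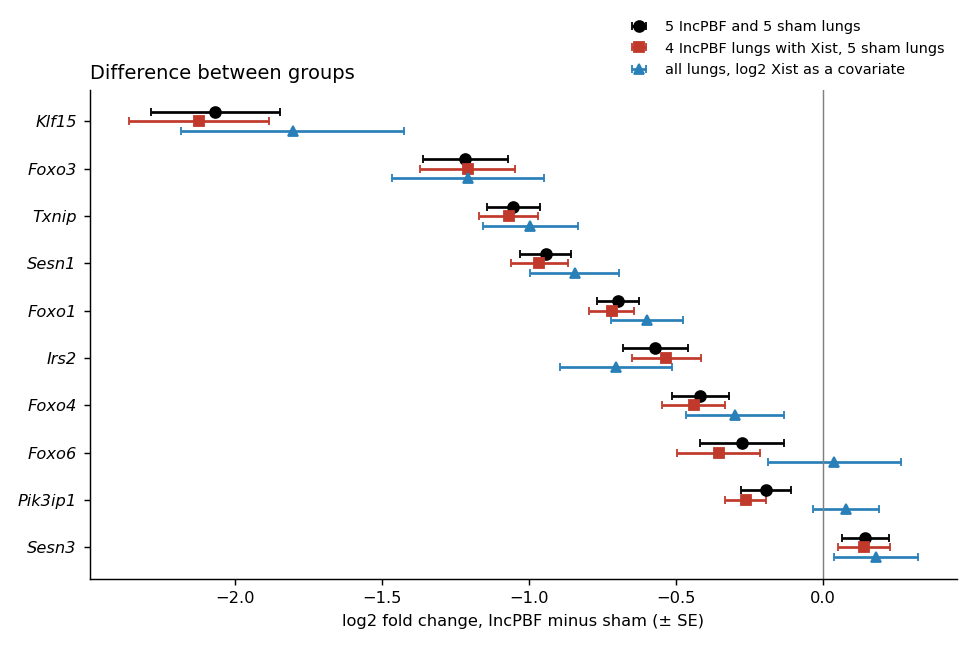
Log2 fold change, IncPBF minus sham, with its SE (horizontal axis) for each gene, from all 10 lungs (black circles), from the 4 IncPBF lungs with Xist against 5 sham lungs (red squares), and from all lungs with log2 Xist as a covariate (blue triangles). The points of Klf15, Foxo3, Txnip, Sesn1, Foxo1 and Irs2 stay left of -0.5 in all 3 fits, and those of Foxo6 and Pik3ip1 cross 0 with the covariate. The blue triangles rest mainly on IncPBF lung 1.

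Other genes of the pathway were then examined. Of 44 further described FOXO targets that were tested, 21 (47.7%) were called lower and 4 (9.09%) higher, against 16.2% and 16.1% of all genes tested, with a median log2 fold change of -0.21. Pdk4, which blocks pyruvate oxidation in fasting, fell most, at -2.28. Cdkn1a, which encodes the cell cycle inhibitor p21, fell by 0.95 on the log2 scale, and Pnpla2, the first lipase of triglyceride breakdown, by 0.94. Klf4 (0.57), Prdx5 (0.37) and Angpt2 (0.31) rose. The Angpt2 call was lost on leaving out IncPBF lung 1, 3 or 5 or sham lung 1, 3 or 5 (limma adjusted p = 0.0611 to 0.0829). With Xist as a covariate, where 741 of all 15388 genes tested were called, 6 of the 44 were called lower and 1 higher.

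From the receptor to AKT, 11 of 35 genes tested were called lower (31.4%, against 16.2% of all genes), 6 higher (17.1%, against 16.1% of all genes) and 18 neither. The share called higher was thus near that of all genes. Igf1, a ligand of the pathway, rose from 6.53 ± 1.27 to 16.7 ± 1.11 FPKM (log2 fold change 1.36, limma adjusted p = 1.96e-05). Inpp5d, a phosphatase that removes the PI3K product, fell by 0.87, and the PI3K subunits Pik3r1 and Pik3cb fell by 0.68 and 0.47, while Pik3r3 rose by 0.55 and the receptor-binding adaptor Grb10 by 0.42. The insulin receptor Insr fell by 0.33 (limma adjusted p = 0.0206, and 0.0519 without IncPBF lung 4). Igf1r was at -0.21 (adjusted p = 0.0657) and Irs1, the relative of Irs2, at -0.30 (adjusted p = 0.128). The kinase genes Akt1 and Akt2 were at 0.12 and 0.05 and did not pass (adjusted p = 0.201 and 0.4997). The count of lower calls in this list was less stable than that of the FOXO and target genes, at 6 of 35 when each lung was scaled to an equal FPKM total or without IncPBF lung 4, at 7 without sham lung 1 or sham lung 5, and at 1 with Xist as a covariate.

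Of 24 genes tested for proteins that modify or carry FOXO factors, 7 were called lower (29.2%, against 16.2% of all genes) and 9 higher (37.5%, against 16.1%). The acetyltransferase gene Ep300 (-0.39), the methyltransferase gene Setd7 (-0.36) and Stk4, the kinase MST1 (-0.34), fell. Skp2, which targets FOXO1 for degradation (0.81), Prmt1, which methylates FOXO1 (0.61), and the kinase gene Cdk2 (0.33) rose. The Stk4 call was lost on leaving out IncPBF lung 1, 4 or 5 or sham lung 1 or 2 (limma adjusted p = 0.0516 to 0.0707), and that of Cdk2 on leaving out IncPBF lung 1, 3 or 4 or sham lung 1, 2 or 5 (0.0607 to 0.0753). With Xist as a covariate 0 were called lower and 1 higher, against 1 lower and 2 higher in the receptor list. Without IncPBF lung 4, 4 of the 24 were called lower.

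Around Txnip and the sestrins, 7 of 24 partners and relatives were called lower (29.2%) and 4 higher (16.7%), the latter near the 16.1% of all genes. Of the arrestin-domain relatives of Txnip, Arrdc2, Arrdc4 and Arrdc3 fell, at -0.80, -0.54 and -0.32, while Arrdc1 was at -0.01 and did not pass. Mlxip, which encodes the glucose-sensing transcription factor MondoA known to drive Txnip and Arrdc4, fell by 0.51. Txnrd1 (0.34), Txn2 (0.30) and Sec13 (0.29) rose. The Txn2 call was lost on leaving out IncPBF lung 3 or 4 or sham lung 1 or 5 (limma adjusted p = 0.0625 to 0.0795). Of 12 amino acid breakdown genes tied to KLF15, Bckdha (-0.47) and Gpt (-0.37) fell, Got1 (0.40) rose and 9 did not pass. The share called lower, 16.7%, was near the 16.2% of all genes. With Xist as a covariate 1 gene of each of these lists was called lower and 0 higher.

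**Figure D5:**
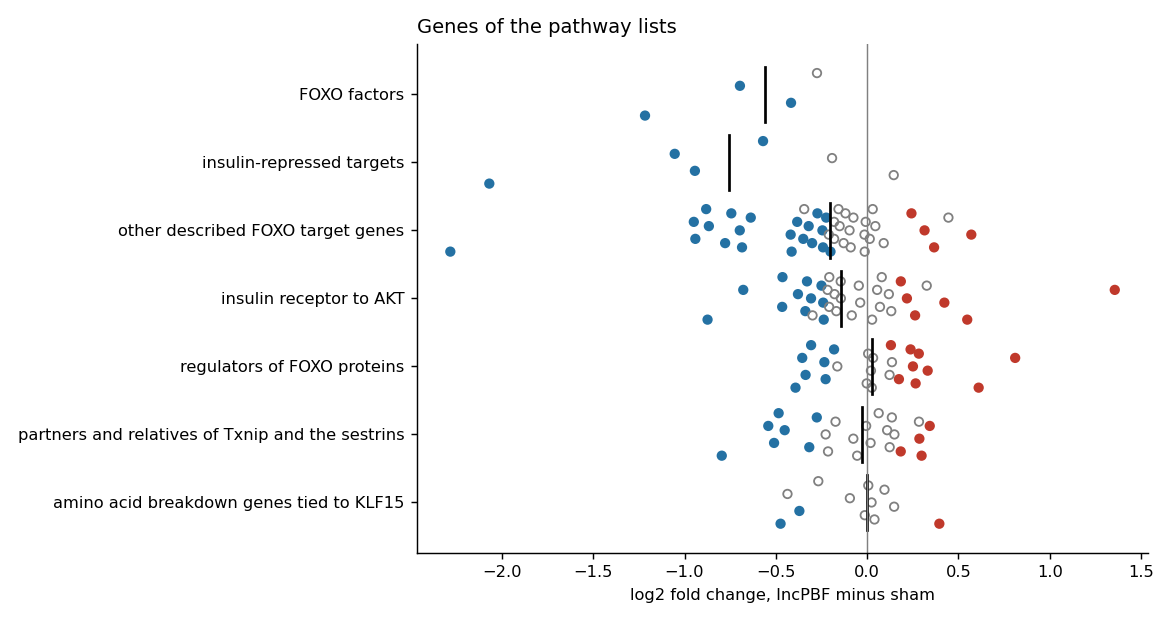
Log2 fold change, IncPBF minus sham (horizontal axis), of every tested gene in 7 lists (rows), with 1 point per gene, spread vertically only to part the points; blue points were called lower, red points higher and open points neither, and the black line is the median of the list. The FOXO factors and insulin-repressed targets have medians of -0.56 and -0.76, the further FOXO targets -0.21, and the other 4 lists lie between -0.14 and 0.03.

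Other measured differences moved with these results, and their part in them was not tested. Of 10 classic glucocorticoid-induced genes, a class to which Klf15 also belongs, 6 were called lower and 0 higher, and 4 were lower with Xist as a covariate. Zbtb16 went from 26.5 to 41.4 FPKM in sham lungs to 0.439 to 1.36 FPKM in IncPBF lungs, and Fkbp5 from 7.35 to 14.2 FPKM to 1.49 to 1.93 FPKM. None of these 10 was higher at an unadjusted limma p under 0.05 or by limma-voom. Of 14 circadian clock genes, 7 were called lower and 0 higher, with 1 higher at an unadjusted p under 0.05 and 1 by limma-voom, and 2 were lower with Xist as a covariate. Cell type markers moved too, where 16.2% of all genes were called lower and 16.1% higher. Of 10 AT1 cell markers 9 were called lower, with summed levels of 1371 to 1481 FPKM in IncPBF lungs and 1655 to 2234 FPKM in sham lungs. Of 8 AT2 cell markers 6 were lower, with sums of 12285 to 15147 against 15967 to 19520 FPKM. Most of that sum was Sftpc, which was not called (-0.21, limma adjusted p = 0.358), and without it the sums were 2476 to 3435 against 4678 to 5446 FPKM. Of 9 endothelial markers 6 were lower and 1 higher, with sums of 1159 to 1236 against 1218 to 1553 FPKM. Without IncPBF lung 1, 6 AT1 markers were called lower, and 6 endothelial markers were called lower and 0 higher. Of 7 smooth muscle and myofibroblast markers 4 were higher, with sums of 318 to 615 against 116 to 251.6 FPKM. Of 6 erythroid genes 4 were lower, with sums of 252.2 to 1929 against 1463 to 2447 FPKM, but 2 were lower without IncPBF lung 1 and 5 without IncPBF lung 5. Of 6 fibroblast markers 1 was lower, Pdgfra at -1.36, and 2 were higher, with overlapping sums of 784 to 972 against 744 to 912 FPKM. Skeletal and heart muscle markers had no calls by limma, with 1 higher in each list at an unadjusted p under 0.05 and 0 by limma-voom, and their sums reached 11.1 and 19.4 FPKM in IncPBF lungs against 2.58 and 4.62 FPKM in sham lungs. With Xist as a covariate, limma called 741 of all 15388 genes tested. Of the markers it called 0 AT1, 0 AT2, 1 endothelial, 0 smooth muscle, 0 erythroid and 1 fibroblast. None of 12 T and B lymphocyte markers was called in either direction, with 2 lower at an unadjusted limma p under 0.05 and 1 by limma-voom. Fat and liver are tissues in which these genes are best known. Of 7 fat cell markers, with sums of 1.17 to 2.79 against 1.90 to 4.16 FPKM, only Cidec passed the filter and was called lower. Without Cidec the sums reached higher in IncPBF lungs, at 0.150 to 1.34 FPKM against 0.0599 to 0.397 FPKM in sham lungs, and overlapped. Adipoq averaged at most 0.0656 FPKM in either group, and Lep was listed at 0 in every lung. No hepatocyte marker exceeded 0.690 FPKM in any lung.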

How the data were processed

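RNA of 10 mouse lungs, 5 per group, was sequenced on a NovaSeq from libraries of a NEBNext Ultra kit. The kit name does not say that strand was kept, while the catalogue number in the methods is that of a directional, strand-keeping version. Whether strand was used in counting is not given in the sources used here. The deposited values are gene FPKM, made by the authors. The processing notes name Bowtie 0.12.2, and the aligner's settings and counting tool are not given in the sources used here. Gene coordinates in the table were those of GENCODE M21 on GRCm38 for 98.3% of 54409 shared genes and for all 10 genes described. IncPBF columns carry another abbreviation than the sample titles, so they were assigned to the group and not to single samples, and lung numbers are those of the columns. FPKM times gene length gave whole fragments for 100% of values (tolerance 0.01 fragments). The library size that these values imply was 0.958 to 1.03 times the fragments on genes in sham lungs. In IncPBF lungs it was 1.02 to 1.07 times, and how that size was set is not given in the sources used here. Genes with a mean of at least 0.5 FPKM were tested on log2(FPKM + 0.1) by limma 3.58.1 with trended eBayes (R 4.3.3), with Benjamini-Hochberg adjustment over all genes tested and a threshold of 0.05. Fold changes on this scale understate changes of low genes. Single genes also had exact permutation tests over lungs, which cannot go below p = 0.00794 with 5 against 5. The fit was tested on simulated data. Promoter windows came from RefSeq, GRCm38.p6, and were searched with Python 3.11.15.

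The genes and lists were chosen with earlier results of these data known. From each pathway list, the up to 3 largest falls and rises past the threshold were named, with relatives of the 10 genes. Alternatives were the pseudocount, filter, scaling, variance model, limma-voom on recovered fragments, Xist as a covariate or selection, a replicate block, and leaving out each lung. The labels do not say that lungs came from separate litters, so p-values measure only the spread between these lungs.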

Additional observations from a re-analysis of the deposited data

Results flagged for a closer look

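Foxo3 in IncPBF lung 5 was at 21.1 FPKM, and the nearest of the other IncPBF lungs was at 15.0 FPKM. The gap took up 0.803 of the range of the group, more than Dixon's 95% critical value for 5 samples. It was the only such value among the 20 groups of 5 values scanned, a test that marks about 1 group in 20 by chance. Without this lung the log2 fold change of Foxo3 was -1.33, against -1.22 with it. This lung also had the highest levels of the skeletal muscle genes Acta1 (4.23 FPKM), Tnnt3 (2.16 FPKM), Ckm (0.843 FPKM) and Myh4 (0.801 FPKM) and of Ucp1 (0.648 FPKM), and their part in the Foxo3 value was not tested.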

How the results depend on the processing

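The 7 calls among the FOXO and target genes were kept with pseudocounts of 0.01 and 1, other filters, 3 other scalings, no variance trend and limma-voom on fragments. Leaving out each lung in turn gave 7 to 8 lower calls, 0 higher calls and 3869 to 5234 genes called in all, against 4970. With log2 Xist as a covariate 741 genes were called and 5 of these genes, and with only the lungs with Xist under 1 FPKM, 154 genes were called and 1 of these genes. In those 2 fits Foxo6 turned to 0.04 and 0.04 (0.03973 and 0.04408) and Pik3ip1 to 0.08 and 0.09 (0.08072 and 0.08749). These fits ended the calls of 23 and 33 other named genes, against 5 without a filter, 3 with equal FPKM totals, 1 with the replicate block and 0 to 5 on leaving out 1 lung. The second has only 1 IncPBF lung, and with the covariate the group difference rests mainly on that same lung. The part of this in the smaller counts was not tested. With the lung number as a replicate block 4872 genes were called and 7 of these genes. Lungs of the same number did not deviate together (correlations of -0.067 to 0.085), so the numbers were not taken as pairs. Foxo6 had the fewest fragments, 37 to 63 per lung, and the part of depth in its result was not tested.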

Other observations

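For each gene, the nearest profile over the 10 lungs was found by the root mean square difference of log2(FPKM + 0.1), each gene centred on its own mean. All of these points share the same lungs and the same group difference, so the values describe likeness and nothing further. Pdk4, which is also a described FOXO target, was nearest to Klf15, at 0.194. Prdx6, an antioxidant enzyme of the lung, was nearest to Txnip, at 0.102, and Sesn1 was 3rd nearest to Txnip, at 0.129. Epb41 was nearest to Sesn1 (0.0482), Epn2 to Foxo1 (0.0504), Gm45819 to Foxo3 (0.0964), Myo1c to Foxo4 (0.0434) and Rgs12 to Irs2 (0.0924). Of the genes that were not called, Parp10 was nearest to Foxo6, Plcl2 to Pik3ip1 and Senp5 to Sesn3.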
